A study of Mus musculus with 6 samples.

Results

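Coagulation and complement genes mostly encode plasma proteins that the liver makes for export. Here 38 genes of these systems, 21 of coagulation and fibrinolysis and 17 of complement, were followed by name. A gene was taken where the array annotation gave a measured feature exactly that 1 symbol, which held for 33 of the 38, namely 19 of coagulation and 14 of complement, among 18820 genes in all. Klkb1, Masp2 and C4b lie on features shared with another symbol, no feature carried the symbol of Cpb2 or C3 alone, and these 5 genes were not analysed here. The samples were primary hepatocytes, liver cells freed by perfusion and digestion, from male wildtype C57BL/6J mice aged 8 to 10 weeks. They were plated in 60 mm dishes with serum and transduced either with an adenovirus that encodes the nuclear form of CREBH (Ad-nuclear CREBH, 3 dishes) or with one that encodes green fluorescent protein (Ad-GFP, 3 dishes), each at 100 viral particles per cell, and RNA was collected 24 h later. CREBH, the product of Creb3l3, is a liver transcription factor that is normally held in the membrane of the endoplasmic reticulum until proteases release its nuclear part, so that the virus supplied a form that needs no release. No arm without virus was included, and a viral promoter drove the transgene.

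Blood clots through a chain of serine proteases. Contact of blood with a charged surface or with tissue factor starts the chain, thrombin ends it by turning fibrinogen into fibrin, and plasmin dissolves the fibrin again. Several of the proteases carry a glutamate modification that needs vitamin K. Complement is a related chain that marks and perforates microbes. Antibodies, sugar-binding lectins or spontaneous turnover start it, convertases built on C3 carry it forward, and the terminal components form a pore. Hepatocytes make most of these proteins, and several of them, fibrinogen above all, belong to the acute phase response that interleukin-6 drives in the liver through STAT3.

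Expression is given on the log2 scale after RMA, a method that removes array background, puts the arrays on a common scale and combines the probes belonging to a feature. A log2 fold change is the mean of Ad-nuclear CREBH minus that of Ad-GFP dishes, and a gene is said to have risen or fallen where the Benjamini-Hochberg adjusted p of limma over all 18820 genes was under 0.05. Creb3l3 itself was at 9.97, 10.46 and 10.59 in the Ad-nuclear CREBH dishes and 8.49, 8.02 and 8.21 in the Ad-GFP dishes, which fits the labels, although the probes cannot tell the viral transcript from that of the mouse. Albumin (Alb) was between 13.23 and 13.32 in Ad-nuclear CREBH dishes and between 13.25 and 13.33 in Ad-GFP dishes, and of 10 hepatocyte markers none rose and 4 fell, against 18.2% of all genes. The log2 fold changes of these were -4.22 for Tdo2, -2.17 for Tat, -1.21 for Cps1 and -0.32 for Hpx (adjusted p = 1.8e-05, 0.0036, 0.00165 and 0.00455 from limma), and their part in the results below was not tested. None of 10 endothelial markers passed the test. Of 12 markers of Kupffer cells and macrophages 1 rose and 3 fell. Their summed linear level was 1257 to 2670 in Ad-nuclear CREBH dishes and 2726 to 3726 in Ad-GFP dishes. Most of that sum was Cd68, and without it the other 11 markers summed to 299 to 374 in Ad-nuclear CREBH dishes and 303 to 409 in Ad-GFP dishes, ranges that overlapped. Clec4f, which defines Kupffer cells, was between 3.73 and 4.12 in Ad-nuclear CREBH dishes and between 3.50 and 3.86 in Ad-GFP dishes, under the median of all genes on each array (5.05 to 5.30). The array of replicate 1 stood apart in both groups, with a mean correlation across genes to the other arrays of its group of 0.991 in the Ad-nuclear CREBH group, against 0.994 for each remaining array, and 0.986 in the Ad-GFP group, against 0.991 for each remaining array. The dishes are not said to come from separate animals, so that p-values measure the spread between dishes, and an exact permutation test of 3 against 3 cannot go below p = 0.1.

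Coagulation genes were mostly lower in hepatocytes with nuclear CREBH. Of 19 measured, 10 fell, 1 rose and 8 did not pass the test. The background over all genes was a fall in 18.2% and a rise in 19.2%, a call of either kind in 37.4%, and the median log2 fold change was -0.76 for the coagulation genes against 0.039 for all genes. Complement genes went the same way, with 9 of 14 fallen, 1 risen and 4 that did not pass, and a median of -1.20. A fall of over 2-fold was called for 6 coagulation genes and 8 complement genes, against 8.96% of all genes. Dim genes are called less often, and most members were not dim. When only the 9410 genes above the median level were fitted, among them 29 of the 33 members, 2967 genes fell and 2895 rose. In that fit 9 coagulation and 9 complement genes fell, and 1 of each rose. In these bulk cultures fewer cells that make a transcript and less of it per cell cannot be told apart. The count of coagulation genes that fell changed when single dishes were left out. It was 6 without Ad-GFP replicate 2, 5 without Ad-nuclear CREBH replicate 2 and 6 without Ad-nuclear CREBH replicate 3. Over all genes 2658, 2677 and 2637 fell in these fits, against 3427 with all arrays. The count of complement genes that fell was 8 or 9 with any 1 array left out. Without both arrays of replicate 1, 14 coagulation genes fell and 2 rose, and 12 complement genes fell and 2 rose. Over all genes 4765 fell and 4377 rose in that fit, against 3427 and 3615 with all arrays.

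**Figure D1:**
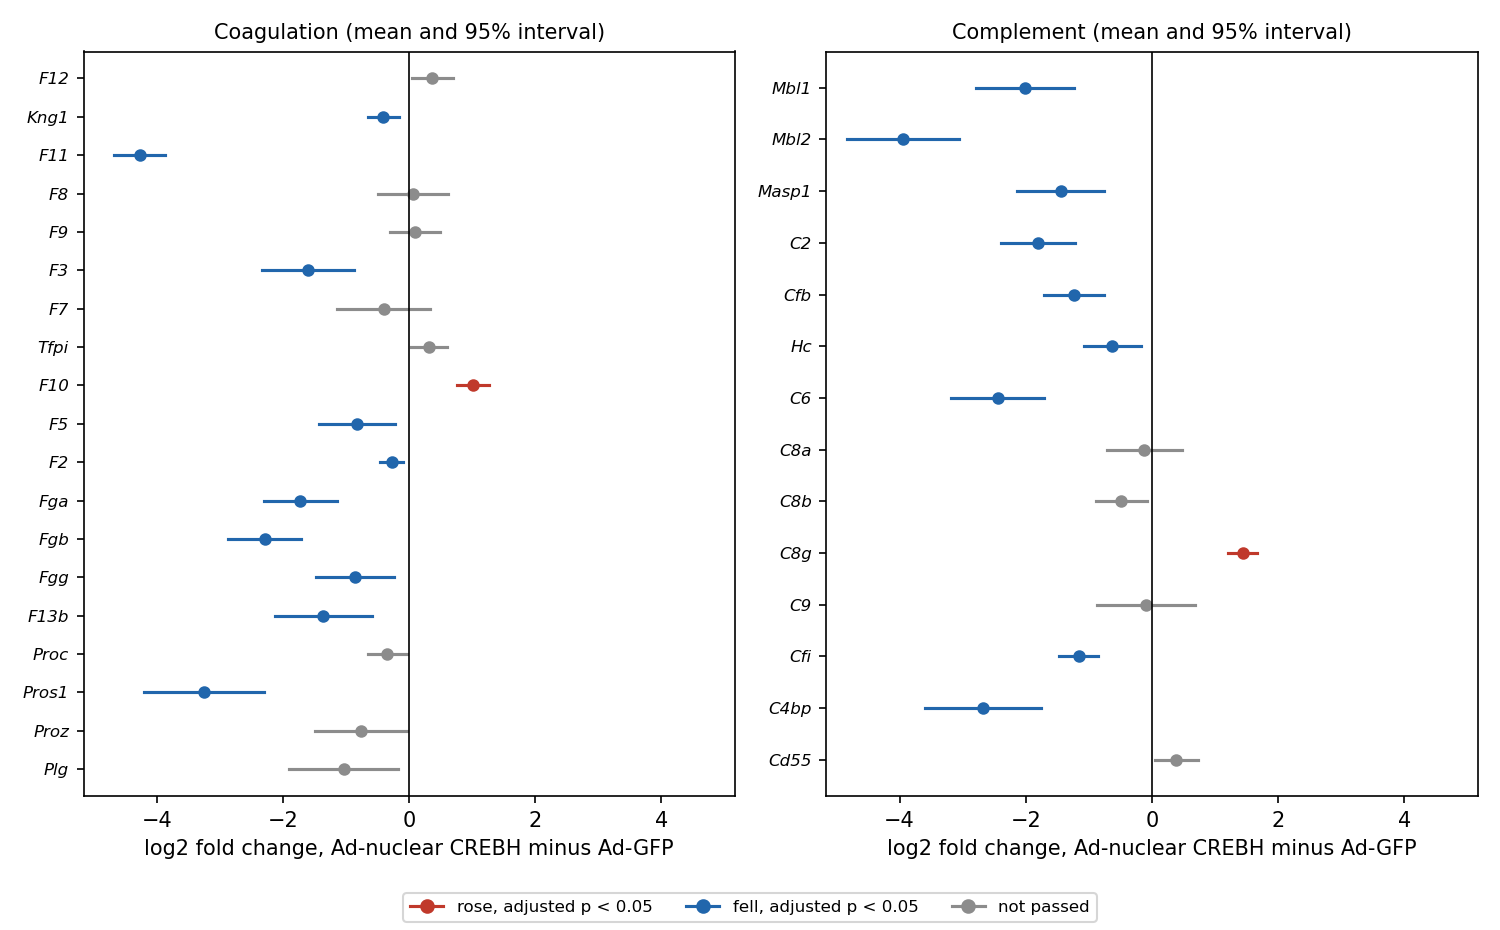
Log2 fold change (Ad-nuclear CREBH minus Ad-GFP, n = 3 dishes each) of the 19 coagulation genes on the left and the 14 complement genes on the right in the order of their roles, with means as points, 95% intervals from limma as lines and colour for an adjusted p under 0.05. F11 at -4.27 and Mbl2 at -3.94 lie farthest left, and F10 at 1.01 and C8g at 1.44 are the red points.

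The contact system starts clotting on charged surfaces. F11, which encodes factor XI, the protease that activates factor IX, was at 5.27, 5.10 and 4.93 in Ad-nuclear CREBH dishes and at 9.65, 9.33 and 9.15 in Ad-GFP dishes. All 3 Ad-nuclear CREBH dishes lay below all Ad-GFP dishes by several log2 units, close to the level of the median gene, and the fall may therefore be understated. It was 19.3-fold (log2 fold change -4.27, SE 0.17, adjusted p = 1.25e-05 from limma), the largest among the 33 genes. Kng1, the gene of the kininogen that carries prekallikrein and factor XI, fell slightly, with 10.83, 10.59 and 10.56 in Ad-nuclear CREBH dishes and 10.98, 11.19 and 11.04 in Ad-GFP dishes (log2 fold change -0.41, SE 0.11, adjusted p = 0.016). Without Ad-GFP replicate 2, Ad-nuclear CREBH replicate 2 or Ad-nuclear CREBH replicate 3 its adjusted p was 0.0687, 0.0692 and 0.0700. Its probes may also read Kng2, a close mouse paralog, which fell by 0.63 on the log2 scale (adjusted p = 0.036; up to 0.119 with 1 array left out). F12, the gene of factor XII, with which contact activation begins, was at 10.80, 11.09 and 11.03 in Ad-nuclear CREBH dishes and at 10.32, 10.79 and 10.69 in Ad-GFP dishes. These groups did not overlap, as for 26.2% of all genes in this direction, but F12 did not pass (log2 fold change 0.37, SE 0.14, adjusted p = 0.0769).

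The cofactor and the protease of the complex that activates factor X, F8 and F9, were close to each other in the groups. Factor IX transcript (F9) was at 9.27, 9.50 and 9.49 in Ad-nuclear CREBH dishes and at 8.95, 9.56 and 9.47 in Ad-GFP dishes, and that of factor VIII (F8), which in the liver comes mainly from sinusoidal endothelial cells, at 5.41, 5.79 and 5.95 in Ad-nuclear CREBH dishes and 5.19, 5.82 and 5.96 in Ad-GFP dishes. For both genes replicate 1 was the lowest dish of its group. The log2 fold changes were 0.09 (95% interval -0.31 to 0.49) for F9 and 0.06 (95% interval -0.50 to 0.62) for F8.

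F3 encodes tissue factor, the membrane receptor that starts clotting after injury by binding factor VII. It was at 5.29, 5.56 and 5.65 in Ad-nuclear CREBH dishes and at 6.32, 7.57 and 7.43 in Ad-GFP dishes. The groups did not overlap although Ad-GFP replicate 1 lay more than 1 log2 unit under the other Ad-GFP dishes, and F3 fell 3.04-fold (log2 fold change -1.60, SE 0.32, adjusted p = 0.00463 from limma). F7, the gene of factor VII, was at 6.63, 6.32 and 6.45 in Ad-nuclear CREBH dishes and at 6.07, 7.31 and 7.24 in Ad-GFP dishes. Here the groups overlapped through Ad-GFP replicate 1 alone (log2 fold change -0.40, SE 0.32, adjusted p = 0.382). Without that array the adjusted p was 0.00267, and with any other 1 array left out it was 0.39 to 0.742. Tfpi, which encodes the inhibitor of the tissue factor pathway, was under the median level of all genes on every array, at 4.32, 4.39 and 4.21 in Ad-nuclear CREBH dishes and 3.96, 4.04 and 3.97 in Ad-GFP dishes (adjusted p = 0.0767).

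In the common pathway F10 rose, while F2 and F5 fell by less, with calls that were lost in some refits. F10, the gene of factor X, where the contact and tissue factor routes meet, was at 10.37, 10.24 and 10.38 in Ad-nuclear CREBH dishes and at 9.19, 9.46 and 9.30 in Ad-GFP dishes. It rose 2.02-fold (log2 fold change 1.01, SE 0.11, adjusted p = 2.0e-04), with all Ad-nuclear CREBH dishes above all Ad-GFP dishes. Prothrombin (F2), the precursor of thrombin, was lower by a small amount, at 11.12, 11.09 and 11.03 in Ad-nuclear CREBH dishes and 11.29, 11.46 and 11.33 in Ad-GFP dishes (log2 fold change -0.28, SE 0.08, adjusted p = 0.0264). With 1 array left out its adjusted p rose as far as 0.116, without Ad-GFP replicate 2. After centring the arrays on their medians its log2 fold change was -0.14 (adjusted p = 0.264 from limma). F5, the cofactor that factor Xa needs, was at 7.68, 7.24 and 7.25 in Ad-nuclear CREBH dishes and at 7.63, 8.57 and 8.46 in Ad-GFP dishes. It passed the test (log2 fold change -0.83, SE 0.26, adjusted p = 0.0365) although Ad-GFP replicate 1 was within a few hundredths of Ad-nuclear CREBH replicate 1, and the call was lost when replicate 2 or 3 of either group was left out (adjusted p up to 0.122).

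**Figure D2:**
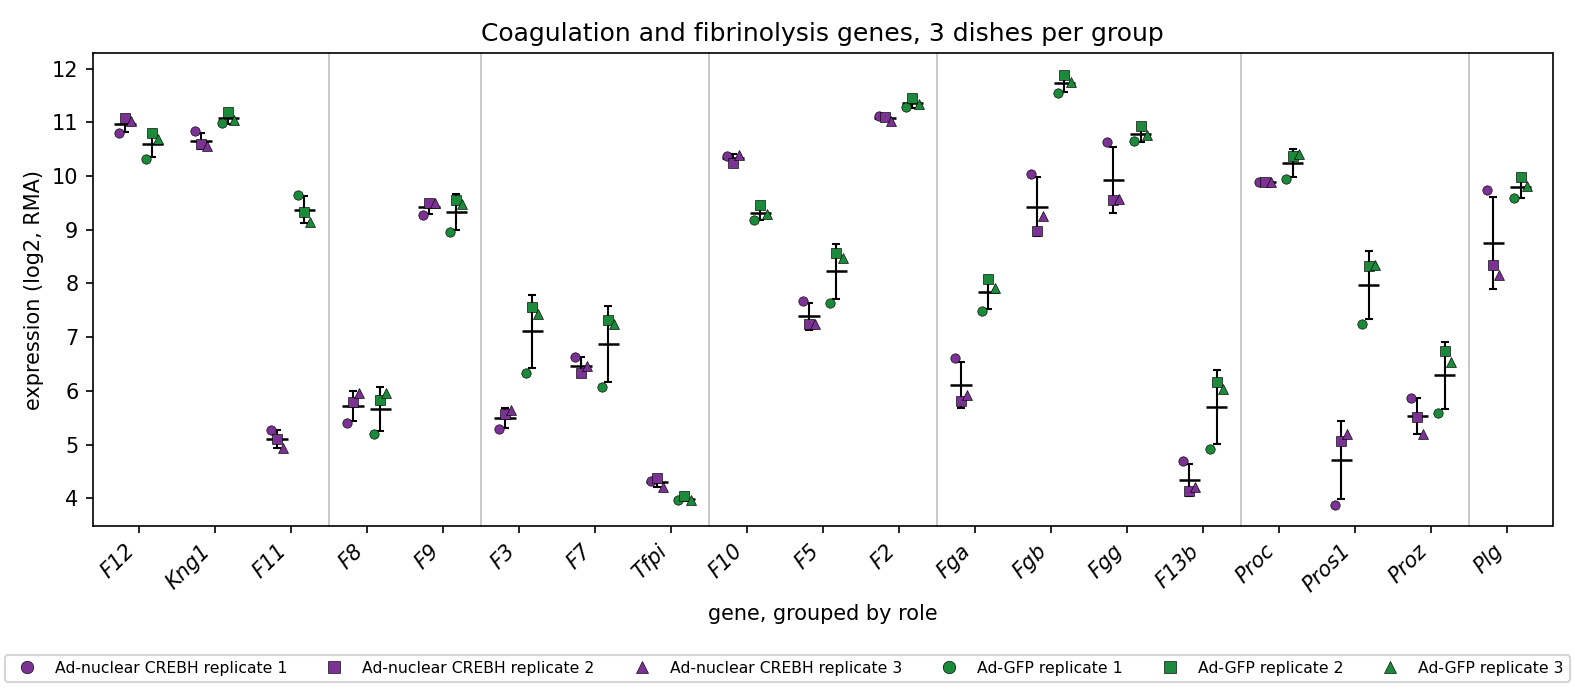
Expression (log2, RMA) of the 19 coagulation genes on each array of hepatocytes transduced with Ad-nuclear CREBH (purple, left of each pair) or Ad-GFP (green, right); marker shape gives the replicate number and bars are mean ± SD of 3 dishes. F11, Fgb and Pros1 show wide gaps between the groups, F10 is higher with Ad-nuclear CREBH, and for F8 and F9 the groups cover the same range.

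All 4 members grouped under the fibrin clot fell. Fibrinogen is built of 3 kinds of chain, whose genes Fga, Fgb and Fgg lie next to each other on chromosome 3 with no other protein-coding gene between them. The beta chain gene Fgb was at 10.04, 8.98 and 9.26 in Ad-nuclear CREBH dishes and at 11.54, 11.87 and 11.75 in Ad-GFP dishes, a 4.9-fold fall (log2 fold change -2.29, SE 0.25, adjusted p = 2.0e-04 from limma). The alpha chain gene Fga was at 6.60, 5.80 and 5.91 in Ad-nuclear CREBH dishes and at 7.49, 8.09 and 7.92 in Ad-GFP dishes (log2 fold change -1.72, SE 0.25, adjusted p = 9.7e-04). In both genes Ad-nuclear CREBH replicate 1 was the highest of its group and still below every Ad-GFP dish. A dimmer feature of Fga was at 3.42, 4.20 and 4.65 in Ad-nuclear CREBH dishes and at 6.26, 7.0 and 6.89 in Ad-GFP dishes, a difference of -2.63 (SE 0.33, adjusted p = 4.8e-04 in a limma fit over all features). The gamma chain gene Fgg was at 10.63, 9.55 and 9.58 in Ad-nuclear CREBH dishes and at 10.65, 10.93 and 10.76 in Ad-GFP dishes (log2 fold change -0.86, SE 0.27, adjusted p = 0.0372). Its replicate 1 dishes were nearly equal in the groups. The call was lost without Ad-GFP replicate 1, 2 or 3 (adjusted p = 0.0505, 0.107 and 0.0827) and without Ad-nuclear CREBH replicate 2 or 3 (adjusted p = 0.129 and 0.128), whereas without both arrays of replicate 1 the log2 fold change was -1.28. F13b encodes the carrier subunit of factor XIII, the enzyme that crosslinks fibrin. It was at 4.69, 4.14 and 4.20 in Ad-nuclear CREBH dishes and at 4.92, 6.17 and 6.03 in Ad-GFP dishes (log2 fold change -1.36, SE 0.33, adjusted p = 0.0126, and 0.0521 without Ad-nuclear CREBH replicate 2). F13a1, another factor XIII gene, is in the wider list and did not pass. It was at 3.63 to 4.18 on all arrays (log2 fold change 0.24, adjusted p = 0.248 from limma).

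The bases in front of the transcription start are shown for the 3 fibrinogen genes, as neighbours that fell together, and for F11, Pros1 and Mbl2, the members with the largest falls. Each run is the 250 bases before the start in RefSeq on GRCm38.p6, 5′ to 3′ on the strand of the gene, and capitals mark matches on either strand to TTCNNNGAA (STAT3) or TTGCNNAA (C/EBP), patterns bound by factors of the acute phase response, or to GTTAATNAT, for the liver factor HNF1.
Fga, chr3:83025903-83026152, plus strand: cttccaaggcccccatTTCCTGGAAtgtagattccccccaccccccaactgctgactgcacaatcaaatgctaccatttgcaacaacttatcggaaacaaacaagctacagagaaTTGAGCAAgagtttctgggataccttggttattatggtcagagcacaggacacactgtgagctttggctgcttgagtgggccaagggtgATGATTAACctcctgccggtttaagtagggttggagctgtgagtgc
Fgb, chr3:83049864-83050113, minus strand: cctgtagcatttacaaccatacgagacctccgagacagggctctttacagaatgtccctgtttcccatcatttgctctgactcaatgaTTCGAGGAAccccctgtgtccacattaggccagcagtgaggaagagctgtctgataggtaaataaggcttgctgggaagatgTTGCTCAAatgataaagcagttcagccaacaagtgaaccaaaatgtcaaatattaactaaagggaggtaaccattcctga
Fgg, chr3:83007474-83007723, plus strand: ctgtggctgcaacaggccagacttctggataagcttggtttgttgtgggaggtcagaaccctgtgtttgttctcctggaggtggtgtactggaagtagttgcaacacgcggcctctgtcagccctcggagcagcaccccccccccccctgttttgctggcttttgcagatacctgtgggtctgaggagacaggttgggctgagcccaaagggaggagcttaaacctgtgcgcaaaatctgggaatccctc
F11, chr8:45262032-45262281, minus strand: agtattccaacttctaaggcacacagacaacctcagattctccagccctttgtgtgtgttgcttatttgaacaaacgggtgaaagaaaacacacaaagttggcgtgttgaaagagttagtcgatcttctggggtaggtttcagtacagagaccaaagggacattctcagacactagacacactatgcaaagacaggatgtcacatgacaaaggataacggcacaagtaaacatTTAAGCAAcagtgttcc
Pros1, chr16:62854057-62854306, plus strand: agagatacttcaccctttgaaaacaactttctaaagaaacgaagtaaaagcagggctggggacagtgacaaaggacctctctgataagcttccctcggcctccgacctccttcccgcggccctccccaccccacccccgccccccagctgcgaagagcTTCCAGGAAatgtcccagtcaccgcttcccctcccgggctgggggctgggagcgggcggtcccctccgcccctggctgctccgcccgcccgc
Mbl2, chr19:30232678-30232927, plus strand: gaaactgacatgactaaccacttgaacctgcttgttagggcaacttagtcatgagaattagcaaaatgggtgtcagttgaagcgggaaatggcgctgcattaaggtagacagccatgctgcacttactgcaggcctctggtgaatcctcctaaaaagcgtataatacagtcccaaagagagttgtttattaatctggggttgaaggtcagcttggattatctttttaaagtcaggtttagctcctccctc
Fga holds 1 match of each pattern, Fgb 1 for STAT3 and 1 for C/EBP, Pros1 holds a STAT3 match and F11 a C/EBP match, whereas Fgg and Mbl2 have none in this window. A promoter was found for 26 of the 33 measured members, and where a gene had several starts the first in the table was used. TTCNNNGAA was present for 5 of the 26 (F9, Fga, Fgb, Pros1 and C8a), against 7.18% of 27025 promoters of that length, and TTGCNNAA for 5 (F11, F9, Fga, Fgb and C9), against 9.55%. No match overlapped another in these promoters. Of the 14 members with a promoter that fell, 3 had a STAT3 match and 3 a C/EBP match, and of the 12 that did not fall, 2 had a STAT3 match and 2 a C/EBP match. GTTAATNAT was present for 4 members, Fga, F13b, Hc and C4bp, all among the 14 that fell, against 0.781% of all promoters. This pattern was shortened from a longer one after the matches of the longer one had been seen. Its matches therefore do not come from a planned search, and no conclusion is drawn from them. TGACGT, the core of the cAMP response element, was in none of the 26 windows, against 6.56% of all promoters, and CAAAGTCCA, for HNF4, was in none, against 0.381%. These are matches of letters in a short window and not measured binding sites.

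Anticoagulant proteins hold the chain in check. Pros1 encodes protein S, the cofactor of activated protein C. It was at 3.88, 5.07 and 5.20 in Ad-nuclear CREBH dishes and at 7.25, 8.33 and 8.34 in Ad-GFP dishes. Replicate 1 was the lowest dish of each group, and the gap between the groups was larger than the range within either. Pros1 fell 9.53-fold (log2 fold change -3.25, SE 0.41, adjusted p = 4.8e-04). Proc, the gene of protein C itself, was at 9.89, 9.90 and 9.89 in Ad-nuclear CREBH dishes and at 9.94, 10.37 and 10.40 in Ad-GFP dishes, groups that did not overlap but differed by little (log2 fold change -0.34, SE 0.13, adjusted p = 0.0809). Proz, which encodes protein Z, a cofactor for the inhibition of factor Xa, was at 5.86, 5.52 and 5.19 in Ad-nuclear CREBH dishes and at 5.58, 6.75 and 6.53 in Ad-GFP dishes (log2 fold change -0.76, SE 0.32, adjusted p = 0.0975). Plg encodes plasminogen, the precursor of plasmin. It was at 9.74, 8.34 and 8.16 in Ad-nuclear CREBH dishes and at 9.58, 9.98 and 9.81 in Ad-GFP dishes, so that Ad-nuclear CREBH replicate 1 lay within the Ad-GFP range and the other Ad-nuclear CREBH dishes more than 1 log2 unit under it. Its log2 fold change was -1.04 (SE 0.37, adjusted p = 0.061 from limma). Without both arrays of replicate 1, and so without the Ad-nuclear CREBH dish in the Ad-GFP range, it was -1.64 (adjusted p = 1.0e-06). Taking out that dish favours a fall, so no conclusion is drawn from a p computed without it. The fit without both arrays also had fewer dishes and called 4765 genes as fallen, against 3427 with all arrays. Leaving out 1 array, the adjusted p of Plg was 4.2e-04 without Ad-nuclear CREBH replicate 1 and 0.0728 to 0.192 in every other case. F7, F10 and Proz are neighbours on chromosome 8 with no protein-coding gene between them, and of the 3 only F10 passed the test, upward.

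Of the 7 members whose proteins depend on vitamin K (F2, F7, F9, F10, Proc, Pros1 and Proz), F10 rose, F2 and Pros1 fell and 4 did not pass. In the wider list of 31 measured genes of coagulation, fibrinolysis, their receptors and the making of clotting factors, 9 rose and 5 fell. These shares can be read against the 19.2% of all genes that rose and the 18.2% that fell. Mcfd2 had the largest rise in the list and Lman1 the third, and their products form the receptor that carries factors V and VIII out of the endoplasmic reticulum. Mcfd2 was at 11.19, 11.42 and 11.32 in Ad-nuclear CREBH dishes and 9.21, 8.79 and 9.23 in Ad-GFP dishes (log2 fold change 2.23, adjusted p = 2.3e-05), and Lman1 at 11.74, 11.97 and 11.90 in Ad-nuclear CREBH dishes and 10.18, 9.97 and 10.27 in Ad-GFP dishes (log2 fold change 1.74, adjusted p = 2.3e-05). Thbs1, the gene of thrombospondin 1, had the second largest rise, by 2.08 on the log2 scale (adjusted p = 4.4e-05) and Plat, the tissue plasminogen activator, by 1.59 (adjusted p = 0.00926). Among genes named here for their role after their values were seen, Vkorc1 and Vkorc1l1, which regenerate reduced vitamin K, rose by 1.54 and 0.76 (adjusted p = 2.5e-04 and 0.00135), and Furin, a protease that removes propeptides, by 1.25 (adjusted p = 0.00169). Ggcx, the carboxylase that uses the vitamin, had a log2 fold change of -0.13 (95% interval -0.80 to 0.53). The largest falls were those of inhibitors. Serpina10, the partner of protein Z, was at 5.92, 5.82 and 6.27 in Ad-nuclear CREBH dishes and at 8.75, 10.02 and 9.78 in Ad-GFP dishes (log2 fold change -3.51, adjusted p = 8.5e-05). Serpina5, the protein C inhibitor, fell by 2.93, Tfpi2 by 2.06 and the phospholipid-binding Anxa5 by 0.78 on the log2 scale (adjusted p = 1.8e-05, 6.2e-05 and 0.00115). Antithrombin (Serpinc1), the main inhibitor of thrombin, was at 11.04, 10.67 and 10.62 in Ad-nuclear CREBH dishes and 10.43, 10.66 and 10.57 in Ad-GFP dishes (adjusted p = 0.229).

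**Figure D3:**
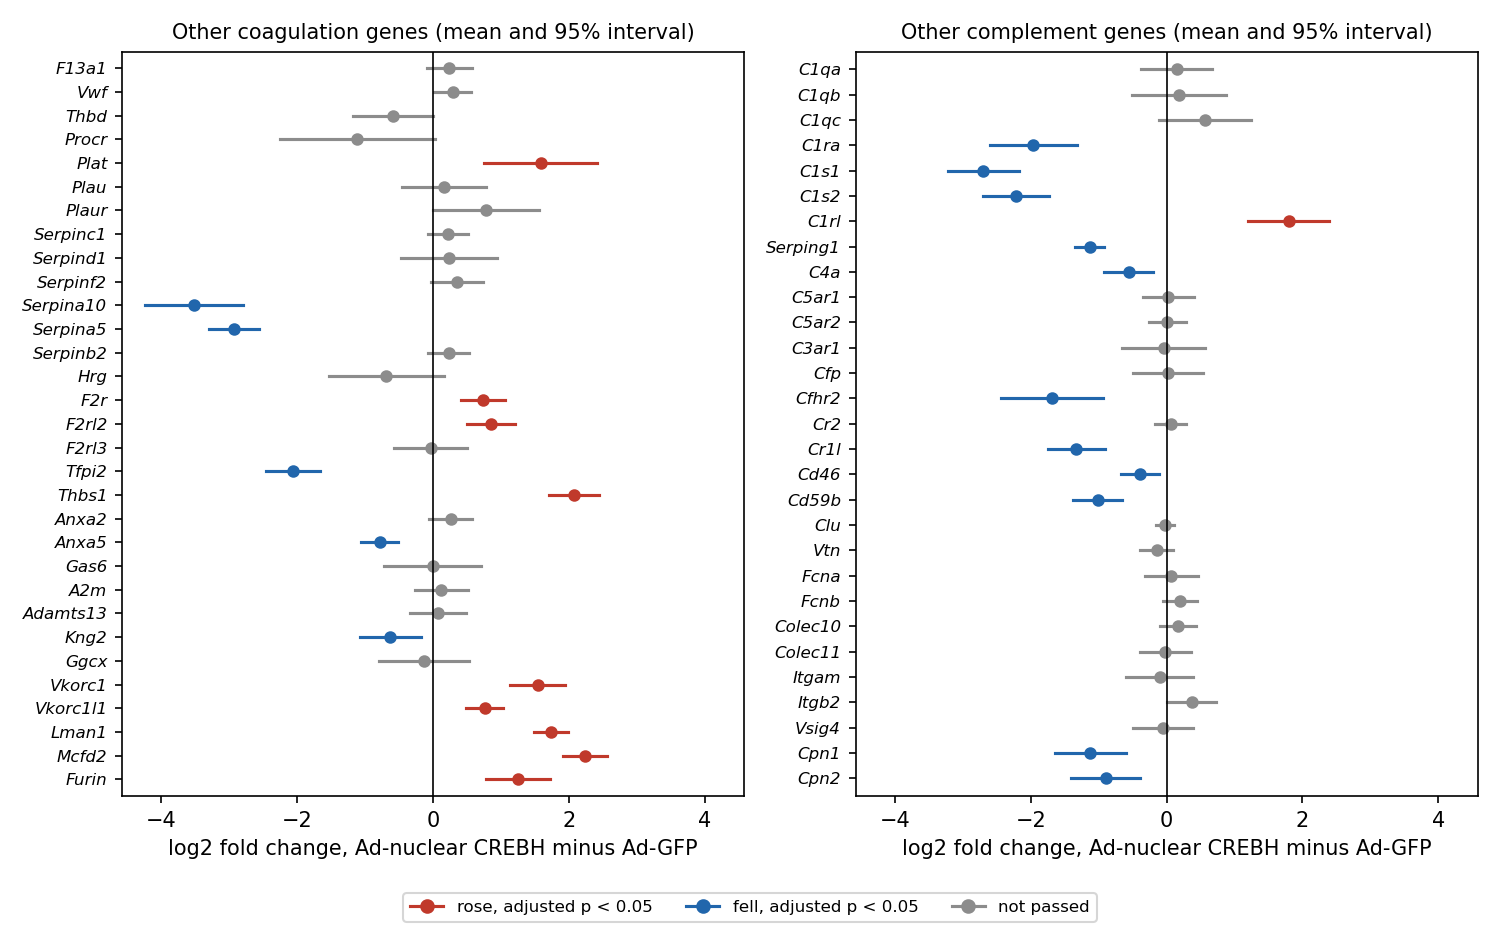
Log2 fold change (Ad-nuclear CREBH minus Ad-GFP, n = 3 dishes each) of 31 other coagulation genes on the left and 29 other complement genes on the right, drawn as means with 95% intervals from limma and coloured by the call at an adjusted p under 0.05. Mcfd2 at 2.23 and C1rl at 1.80 lie farthest right, and Serpina10 at -3.51 and C1s1 at -2.70 farthest left.

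Mbl1, Mbl2 and Masp1 of the lectin pathway fell. Fcna, Fcnb, Colec10 and Colec11 of the wider list, which encode other recognition molecules of that pathway, did not pass. Their log2 fold changes were between -0.02 and 0.20. Their group means were 3.04 to 4.88, under the array medians of all genes (5.05 to 5.30), where a fall may be harder to see. Falls were still called at such levels. Cd59b of the same list had an Ad-GFP mean of 4.67 and fell by 1.02 on the log2 scale (adjusted p = 0.00132 from limma). The mannose-binding lectins Mbl1 and Mbl2 recognise sugars on microbes, and the protease encoded by Masp1 travels with them. Mbl2 was at 5.60, 4.39 and 4.31 in Ad-nuclear CREBH dishes and at 8.10, 9.07 and 8.96 in Ad-GFP dishes. Every Ad-nuclear CREBH dish lay under every Ad-GFP dish, and the fall was 15.4-fold (log2 fold change -3.94, SE 0.39, adjusted p = 1.3e-04 from limma). Without both arrays of replicate 1 it was -4.66 on the log2 scale. Mbl1 was at 3.73, 3.34 and 3.60 in Ad-nuclear CREBH dishes, under the median of all genes, and at 4.77, 6.24 and 5.71 in Ad-GFP dishes (log2 fold change -2.01, SE 0.34, adjusted p = 0.00203). Masp1 was at 6.28, 5.12 and 5.37 in Ad-nuclear CREBH dishes and at 6.77, 7.24 and 7.09 in Ad-GFP dishes (log2 fold change -1.45, SE 0.30, adjusted p = 0.00569), with the highest Ad-nuclear CREBH dish and the lowest Ad-GFP dish both in replicate 1.

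C2 and factor B (Cfb) are the proteases of the convertases that cleave C3 in the classical and lectin pathways and in the alternative pathway, and their genes adjoin on chromosome 17. C2 was at 6.73, 6.45 and 6.39 in Ad-nuclear CREBH dishes and at 7.75, 8.74 and 8.50 in Ad-GFP dishes (log2 fold change -1.81, SE 0.25, adjusted p = 7.8e-04). Cfb was at 10.34, 9.97 and 9.98 in Ad-nuclear CREBH dishes and at 10.85, 11.61 and 11.52 in Ad-GFP dishes (log2 fold change -1.23, SE 0.21, adjusted p = 0.00194). The groups were apart in both genes, and in each the dishes of replicate 1 were nearest to the other group.

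**Figure D4:**
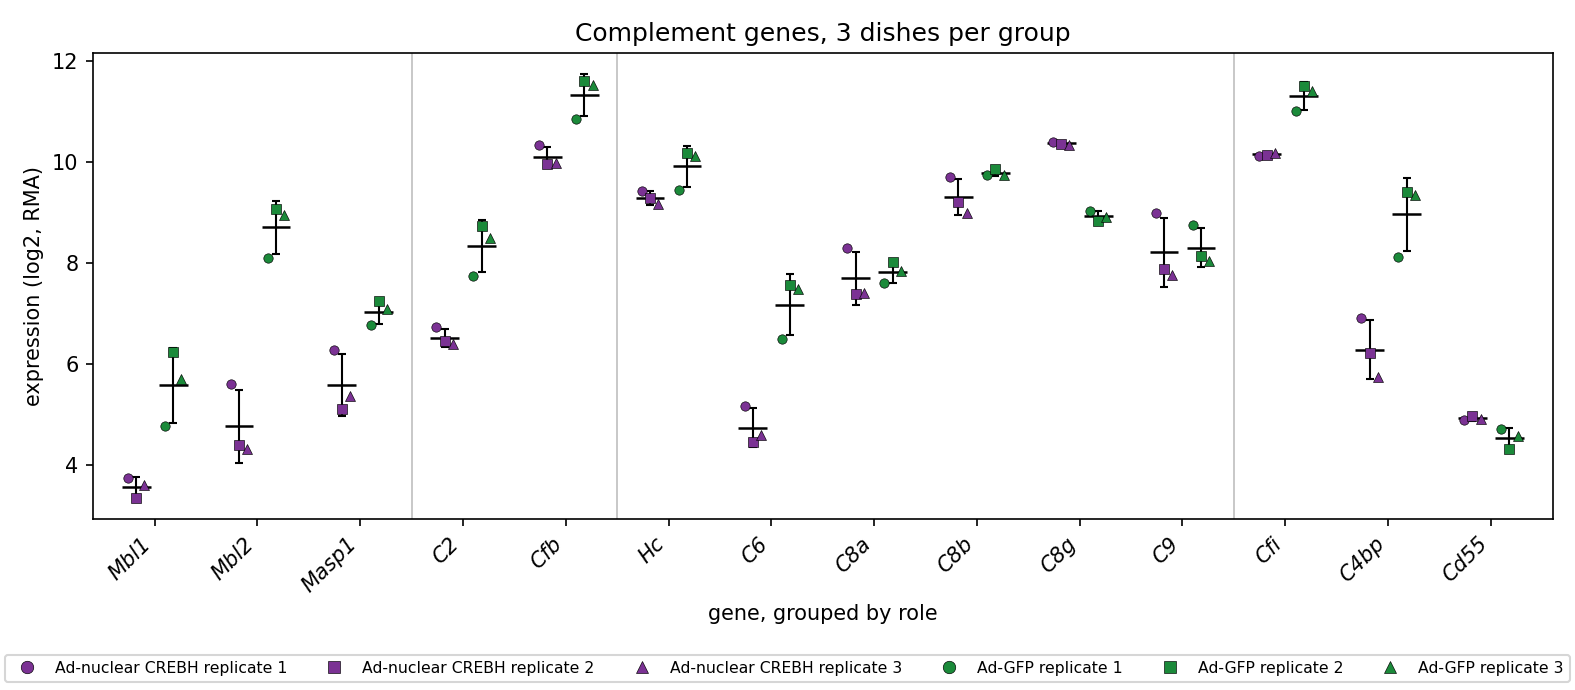
Expression (log2, RMA) of the 14 complement genes on each array of hepatocytes transduced with Ad-nuclear CREBH (purple, left of each pair) or Ad-GFP (green, right); marker shape gives the replicate number and bars are mean ± SD of 3 dishes. Mbl2, C6 and C4bp show wide gaps downward, C8g stands higher in all Ad-nuclear CREBH dishes, and C8a and C9 overlap.

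The terminal components, which assemble the pore, did not move together. C6 fell 5.44-fold, with 5.17, 4.45 and 4.59 in Ad-nuclear CREBH dishes and 6.49, 7.56 and 7.49 in Ad-GFP dishes (log2 fold change -2.44, SE 0.32, adjusted p = 5.5e-04 from limma). Hc, the mouse gene of C5, from which the pore starts, was at 9.43, 9.28 and 9.16 in Ad-nuclear CREBH dishes and at 9.46, 10.18 and 10.11 in Ad-GFP dishes. Its replicate 1 dishes were almost equal, and the fall was small (log2 fold change -0.63, SE 0.20, adjusted p = 0.0359). The call was lost when any 1 array other than Ad-GFP replicate 1 was left out (adjusted p = 0.0525 to 0.122). C8 is made of 3 chains from 3 genes. The gamma chain gene C8g was at 10.40, 10.37 and 10.34 in Ad-nuclear CREBH dishes and at 9.04, 8.84 and 8.91 in Ad-GFP dishes, a 2.72-fold rise (log2 fold change 1.44, SE 0.10, adjusted p = 3.2e-05) and the larger of the rises among the 33 genes. C8a and C8b, the genes of the pore-forming chains, which adjoin on chromosome 4, did not pass. C8b was at 9.71, 9.21 and 9.0 in Ad-nuclear CREBH dishes and at 9.75, 9.87 and 9.74 in Ad-GFP dishes (log2 fold change -0.48, adjusted p = 0.065), and C8a at 8.30, 7.40 and 7.40 in Ad-nuclear CREBH dishes and at 7.60, 8.01 and 7.84 in Ad-GFP dishes (log2 fold change -0.12, 95% interval -0.71 to 0.47). The difference of C8g from the other chains was not tested. C9, which lines the pore, was at 9.0, 7.88 and 7.77 in Ad-nuclear CREBH dishes and at 8.75, 8.14 and 8.03 in Ad-GFP dishes, so that replicate 1 was by far the highest dish of each group (log2 fold change -0.09, 95% interval -0.87 to 0.69).

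Regulators keep complement off the cells of the host. C4bp, whose product binds C4b and speeds its decay, was at 6.91, 6.21 and 5.74 in Ad-nuclear CREBH dishes and at 8.13, 9.41 and 9.36 in Ad-GFP dishes. The fall was 6.4-fold (log2 fold change -2.68, SE 0.40, adjusted p = 0.0011 from limma), and -3.41 on the log2 scale without both arrays of replicate 1. Factor I, the protease that inactivates C3b and C4b, is encoded by Cfi, which was at 10.13, 10.14 and 10.19 in Ad-nuclear CREBH dishes and at 11.01, 11.52 and 11.41 in Ad-GFP dishes (log2 fold change -1.16, SE 0.13, adjusted p = 3.0e-04). The Ad-nuclear CREBH dishes differed by less than 0.1 among themselves. Cd55, a membrane protein that dissolves convertases, was under the median of all genes, at 4.88, 4.97 and 4.91 in Ad-nuclear CREBH dishes and 4.71, 4.32 and 4.57 in Ad-GFP dishes (adjusted p = 0.0768).

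In the wider complement list 11 of 29 measured genes fell and 1 rose, against 18.2% and 19.2% of all genes. The proteases of the first component were among those that fell. C1s1 was at 7.27, 7.15 and 7.08 in Ad-nuclear CREBH dishes and at 9.31, 10.19 and 10.10 in Ad-GFP dishes (log2 fold change -2.70, adjusted p = 6.4e-05), and the log2 fold changes of C1s2 and C1ra were -2.22 (adjusted p = 1.1e-04) and -1.96 (adjusted p = 8.3e-04). C1s1 and C1s2 are near-identical copies whose probes may read each other, and C1ra likewise has a close copy. Serping1, the inhibitor of these proteases and of the contact system, was named after its values were seen and fell by 1.13 (adjusted p = 4.9e-05), while Cfhr2, of the factor H family, fell by 1.69 (adjusted p = 0.00399). The gene that rose was C1rl, a relative of C1r, at 8.41, 8.63 and 8.44 in Ad-nuclear CREBH dishes and 6.09, 6.87 and 7.14 in Ad-GFP dishes (log2 fold change 1.80, adjusted p = 9.1e-04). The C1q genes C1qa, C1qb and C1qc, made by macrophages, did not pass, with log2 fold changes between 0.15 and 0.56. Of the fluid-phase inhibitors of the pore, Clu was at 12.91 to 13.04 in Ad-nuclear CREBH dishes and 13.01 to 13.03 in Ad-GFP dishes, and Vtn at 11.58 to 11.96 in Ad-nuclear CREBH dishes and 11.82 to 11.94 in Ad-GFP dishes.

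**Figure D5:**
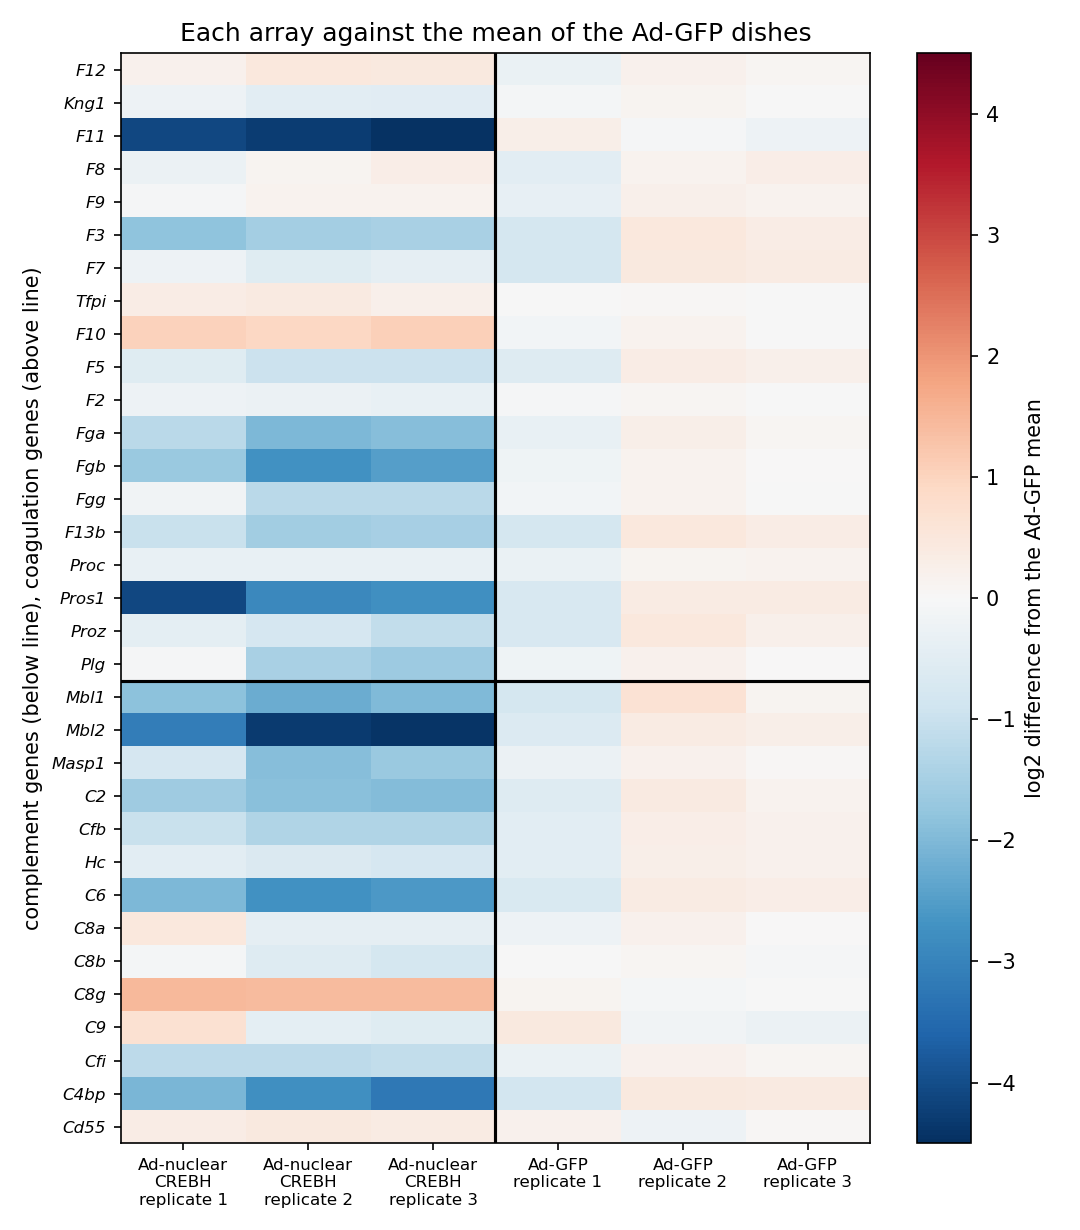
Log2 difference of each of the 33 genes on each array from its mean over the 3 Ad-GFP dishes (blue lower, red higher), with Ad-nuclear CREBH arrays on the left and Ad-GFP arrays on the right and coagulation genes above the line. Differences reach from -4.44 to 1.48, the blue columns of Ad-nuclear CREBH replicates 2 and 3 are darker than that of replicate 1 for most genes, and Pros1 is the reverse.

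The map of differences by array shows how the dishes varied. Relative to the Ad-GFP mean, the median log2 difference in Ad-nuclear CREBH replicates 1, 2 and 3 was -0.25, -0.77 and -0.97 for the coagulation genes and -0.87, -1.27 and -1.23 for the complement genes. In Ad-GFP replicates 1, 2 and 3 the same medians were -0.29, 0.19 and 0.09 for coagulation and -0.38, 0.24 and 0.12 for complement. Ad-GFP replicate 1 was thus the low dish and Ad-nuclear CREBH replicate 1 the high dish of its group, which brought the replicate 1 dishes close to each other for the coagulation genes but not for the complement genes. Over the 33 genes, 20 had groups that did not overlap with Ad-nuclear CREBH lower, against 23.1% of all genes, and 5 with Ad-nuclear CREBH higher, against 26.2%.

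A selection was also made by an unadjusted p under 0.001, a fold change over 2 or under 0.5 and a linear expression value over 300 as the mean of at least 1 group. These thresholds follow the study's methods, but the p was that of the limma fit and not of the intensity-based moderated statistic used there, so that the genes selected need not be the same. The selection held 1508 genes, 9 of the 33 among them. F10 and C8g were up, against 4.91% of all genes. F11 and Fgb of coagulation and Mbl2, C2, Cfb, Cfi and C4bp of complement were down, against 3.1% of all genes. Pros1, C6, Mbl1, Fga and F3 were not selected although each fell over 3-fold. They passed the p and fold thresholds, but neither group mean of any of them was over 300.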

How the data were processed

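Expression was measured on 6 Affymetrix Mouse Gene 1.1 ST arrays, 1 per dish, with 3 Ad-nuclear CREBH and 3 Ad-GFP dishes grouped by the sample labels. The authors deposited log2 values made with RMA, whose version and array definition are not given in the sources used here. They were used as deposited, and RMA gives no call of signal over background. Changes of dim genes can be understated. The platform annotation supplied gene symbols, giving 1 to 21218 features, several to 1881 and none to 12457. A gene on more than 1 feature was represented by its brightest, judged by the mean over all arrays. limma 3.58.1 in R 4.3.3 (lmFit, eBayes with an intensity trend) compared the groups without covariates, with 4 residual and 3.97 prior degrees of freedom. The fit was tested on simulated data. Lists of genes were read from that fit and described by counts, with no test of the list.

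Per-array values are given for the up to 6 largest rises and falls in coagulation and in complement, for the 3 members of each that did not pass and had the highest level, and for most other members. Of the wider lists the up to 4 largest rises and falls are named. Other genes named from those lists were chosen after their values were seen. The members and lists were chosen with earlier results of these data known. Alternatives changed the variance prior, moderated statistic, array weights, replicate block, normalization, features per gene, filter on dim genes and arrays left out. The HNF1 pattern searched in promoters was shortened from a longer one after the matches of the longer one had been seen, so its matches are not those of a planned search. Figures were drawn with matplotlib 3.10.9.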

Additional observations from a re-analysis of the deposited data

How the results depend on the processing

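The fit was repeated under 17 alternatives, and no called member changed direction in any of them. Of the 21 calls among the members 15 held under each alternative that included the gene, namely the rises of F10 and C8g and the falls of F11, F3, Fga, Fgb, Pros1, Mbl1, Mbl2, Masp1, C2, Cfb, C6, Cfi and C4bp. The fit of genes above the median level left out 4 members, Mbl1 and F13b among them. The calls of Kng1, F5, F2, Fgg, F13b and Hc were lost in at least 1 setting. Coagulation members that rose numbered 2 without the intensity trend, 3 with array weights, 2 with the replicate block, 3 after centring the arrays on their medians and 2 without both arrays numbered 1, against 1. Complement members that rose numbered 2 without the trend, with array weights, with centred arrays and without both arrays numbered 1, against 1, and 1 to 2 with 1 array left out. With 1 array left out 5 to 12 coagulation members fell, against 10, and 1 to 2 genes of the wider complement list rose. In that list 3 rose with array weights, 2 with centred arrays and 2 without both arrays numbered 1, against 1, and 7 fell among genes above the median level, against 11. Of the wider coagulation list 9 fell without both arrays numbered 1, against 5. Calls over all genes moved too. Rises numbered 3573 without the trend, 4624 with array weights, 3715 with the replicate block and 4814 with centred arrays, against 3615. In all, 4377 genes rose and 4765 fell without both arrays numbered 1. With 1 array left out 2637 to 4043 genes fell, against 3427. Centring shifted the median over all genes by 0.14 on the log2 scale, to 0.18, and gave -0.62 for coagulation members and -1.05 for complement members. The study's thresholds, applied to the limma p, selected 3011 genes and 6 coagulation members without the expression minimum, and 530 genes and 3 complement members with both group means over 300, against 1508 genes, 3 coagulation and 6 complement members.

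Deviations from the group mean correlated between arrays of the same replicate number with r of 0.18, 0.073 and 0.14 for numbers 1, 2 and 3. Ad-nuclear CREBH replicates 1 and 3 correlated best with the Ad-GFP array of their own number, and replicate 2 with Ad-GFP replicate 3 (0.12). Arrays numbered 1 correlated with those of other numbers in the other group at -0.17 to -0.10. The labels name no pairs, and the main fit took none. With the replicate block 9 coagulation and 9 complement members fell, F12 gained a call and F5 lost it. Over all genes 3705 fell in that fit, against 3427 in the main fit. The number of arrays, and the absence of a background call for dim genes, limit the precision.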
